A study of Mus musculus with 23 samples.

Results

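The sequenced reads of mouse retina small RNA libraries were described here by the class of RNA to which they aligned. All 23 libraries of the study were included, and they came from 15 mice in 5 groups. A table deposited by the authors gives, for each library, the number of reads in each class. Its 28 class columns were each taken as a share of the reads that aligned and passed the authors' filter. Reads were present in 26 of the 28 classes, and all 26 were tested. The columns for star-strand miRNA and for low-complexity repeats held 0 reads in every library. No count of a single miRNA was used.

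Each library was made from 1 retina taken at postnatal day 90. Wild-type (WT) mice were of strain C57B and untreated, with 2 libraries from 2 mice. All other mice were labelled P23H+/- KI, that is, heterozygous for a knock-in of the P23H form of rhodopsin, a light receptor of rod photoreceptors whose P23H change is a known cause of inherited retinal degeneration. These mice were uninjected (5 libraries, 3 mice), injected with saline (2 libraries, 1 mouse), treated with the human rhodopsin gene (human gRHO, 3 libraries, 2 mice) or treated with the mouse rhodopsin gene (mouse gRhO, 11 libraries, 7 mice). The labels give neither the vector nor the dose, route or day of treatment, and no P23H mouse of another age was sampled. The WT mice therefore differed from the others in genotype and in the labelled strain, and they had no saline or treated counterpart.

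Mouse numbers below only name the animals within a group. The assignment of libraries to mice, and of R and L to the right and left retina, was inferred from the library titles. Uninjected, saline and human gRHO mice each carried 1 leading title number of their own, and the mouse gRhO mice carried 3. If that number is a cage, treatment and cage cannot be told apart. No label says how the retinas of a group were raised or processed together, so p-values below measure the spread between these mice, which may be partly technical. The class totals hold no marker of a cell type, so the labelled tissue could not be checked against markers. In bulk RNA, fewer cells of a type and less RNA per cell cannot be told apart.

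A microRNA (miRNA) is a short guide RNA cut from a hairpin precursor, and a small RNA library is made to capture it. Other short reads come from longer RNAs that are cut or broken: ribosomal RNA (rRNA) of the ribosome, transfer RNA (tRNA) that carries amino acids, small nucleolar RNA (snoRNA) that guides modification of rRNA, small nuclear RNA (snRNA) of the spliceosome, and the signal recognition particle RNA (srpRNA) that directs nascent proteins to the endoplasmic reticulum. In repeat annotation scRNA stands for small cytoplasmic RNA, such as the Y RNAs and BC1, and not for single cells. The remaining classes are parts of messenger and long noncoding transcripts, and repeats such as LINE, SINE and LTR elements and satellite DNA. By its name the crossmapped class holds miRNA reads that match several miRNAs. The deposited table does not define it.

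Libraries held between 13343665 and 22494214 reads of at least 15 bases, of which 8150253 to 17641918 aligned and were kept. The classes summed to the kept reads in 23 of 23 libraries. At this depth the widest 95% Wilson interval of any share spanned 0.0608 percentage points, and for shares under 10% the widest spanned 0.0377. These intervals cover counting error only, since reads copied by PCR are not independent molecules. Every pair of libraries of a group differed by far more than counting noise, with a chi-square of at least 141 for each degree of freedom, so none was taken as a repeat deposit. The 4 columns that would give the position of the adapter in the read, and so the length of the insert, held 0 in all libraries. Insert length could not be described.

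miRNA made up most of every library. Mature miRNA took between 71.4% and 91.0% of aligned reads (median 83.7%), and crossmapped miRNA took 5.32% to 17.0% (median 11.4%). Among all miRNA reads, the crossmapped part was lowest in WT mouse 2 at 5.52% and highest in the right retina of mouse gRhO mouse 1 at 17.9%. The left retina of that same mouse stood at 10.6%. The other miRNA classes were small. Unannotated miRNA took at most 197 RPM (reads in 1000000 aligned reads), precursor miRNA at most 0.0108% of aligned reads and the hairpin loop at most 0.00689%.

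Among the transcript parts, RNA without a coding sequence was the most abundant and took 0.643% to 1.87% of aligned reads. Introns took 0.141% to 0.347%, 3' untranslated regions 0.0591% to 0.241%, 5' untranslated regions 0.0946% to 0.287%, and coding exons 0.0352% to 0.159%. All 5 were thus minor beside miRNA in every library. The snoRNA share ran from 0.296% to 0.622%, a range of 2.10-fold, and the snRNA share from 0.0110% to 0.0405%. Reads of unknown class took 0.355% to 0.870%.

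The classes that varied most were rRNA, tRNA and scRNA. Between the lowest and the highest library the rRNA share differed 30.8-fold, the scRNA share 22.4-fold and the tRNA share 18.9-fold, against 1.27-fold for mature miRNA. Ordered by rRNA share, the libraries fell into 17 at or below 0.878% and 6 at or above 3.00%, with none between. The 6 were chosen from the data by that gap, and they are described without a test.

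The left retina of mouse gRhO mouse 2 held 6.20% rRNA, 2.80% tRNA and 7.11% scRNA. The left retina of mouse gRhO mouse 6 held 4.85%, 2.12% and 7.07% of these classes, in the same order. The right retina of mouse gRhO mouse 3 held 3.08%, 1.35% and 3.87%. In each of these treated retinas scRNA was above rRNA and rRNA was above tRNA.

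The other 3 of the 6 libraries were uninjected. The left retina of uninjected mouse 2, its only library, held 5.14% rRNA, 2.70% tRNA and 4.96% scRNA. In uninjected mouse 3 the left retina held 3.00%, 3.30% and 4.10% of these classes, and the right retina 3.83%, 2.30% and 4.67%. The order of the classes thus differed between these uninjected retinas. By group, 3 of 5 uninjected and 3 of 11 mouse gRhO libraries were in this set, and 0 of the WT, saline and human gRHO libraries. In the other 17 libraries rRNA ranged from 0.201% to 0.878% (median 0.383%, human gRHO mouse 2 second highest at 0.875%), tRNA from 0.175% to 0.438% (median 0.303%) and scRNA from 0.317% to 0.793% (median 0.371%).

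**Figure D1:**
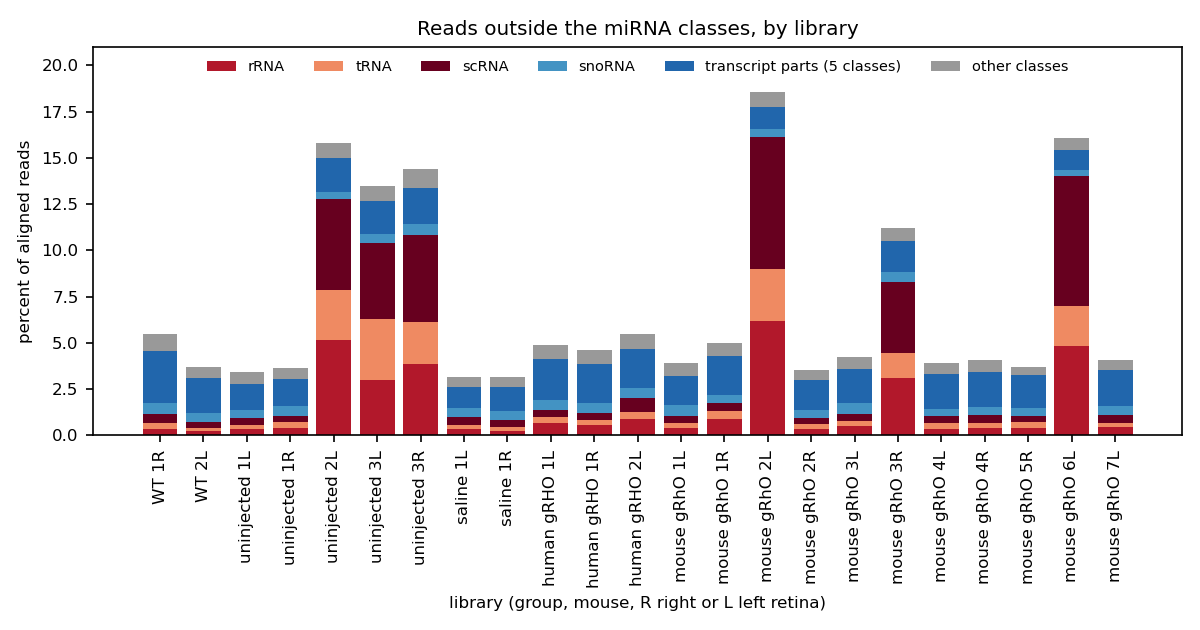
Stacked bars of the reads outside the miRNA classes, as percent of aligned reads (vertical axis, from 0), for each of the 23 libraries (horizontal axis, group, mouse and R or L retina). rRNA, tRNA and scRNA together reach 8.29% to 16.1% in 6 libraries and stay between 0.734% and 2.04% in the other 17.

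rRNA, tRNA and scRNA were high in the same 6 libraries, and their ranges did not overlap those of the other 17. For rRNA this follows from how the 6 were chosen. Of their sum, scRNA made up 38.7% to 50.4% in the 6 libraries and 24.3% to 46.2% in the others. rRNA made up 28.8% to 40.2% and 27.4% to 50.8%, and tRNA 15.1% to 31.7% and 18.1% to 31.7%. The mix of these RNAs therefore overlapped between the sets while their total did not.

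Over all 26 classes, 6 had ranges that did not overlap between the sets, with rRNA among them by the choice of the sets. Besides rRNA, tRNA and scRNA, these were unannotated miRNA (0.0104% to 0.0197% in the 6 libraries against 0.0015% to 0.00725%), LTR elements (377 to 526 RPM against 150 to 319) and mature miRNA, which was lower in the 6 libraries (71.4% to 77.7% against 77.9% to 91.0%). srpRNA was at 79.6 to 115 RPM in the 6 and reached 81.0 in the others. The shares of a library sum to its whole, so a class that takes more leaves less for the rest. With rRNA, tRNA and scRNA removed from the denominator, mature miRNA took 81.9% to 87.3% in the 6 libraries and 79.3% to 91.6% in the others, and these ranges overlapped.

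Several structural and transcript classes were not apart in these libraries. snoRNA took 0.296% to 0.622% in the 6 and 0.413% to 0.612% in the 17, and snRNA 183 to 307 against 110 to 405 RPM. Coding exons were at 406 to 854 RPM against 352 to 1589, LINE at 0.0229% to 0.0328% against 0.0108% to 0.0598%, and SINE at 0.0209% to 0.0424% against 0.0160% to 0.0317%. All classes other than miRNA, rRNA, tRNA and scRNA summed to 2.02% to 3.61% in the 6 and 2.17% to 4.34% in the others.

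The fate of the raw reads also separated these libraries. Of the reads of at least 15 bases, 58.3% to 67.7% aligned and were kept in the 6 libraries, against 72.8% to 79.8% in the other 17. Unaligned reads took 2.98% to 5.10% against 1.37% to 2.12%. The part counted neither as kept, as unaligned, nor under the header's filter without an XA tag took 28.3% to 35.5% against 17.9% to 23.96%. The number of miRNA species detected, as the authors counted them, was 594 to 650 against 527 to 701. These ranges overlapped only through WT mouse 2, at 527, the library with the most aligned reads. The next lowest of the 17, the left retina of mouse gRhO mouse 3, held 661, above all 6. RNA integrity and input amount are not in the files used here, and their part in the rRNA, tRNA and scRNA levels was not tested.

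**Figure D2:**
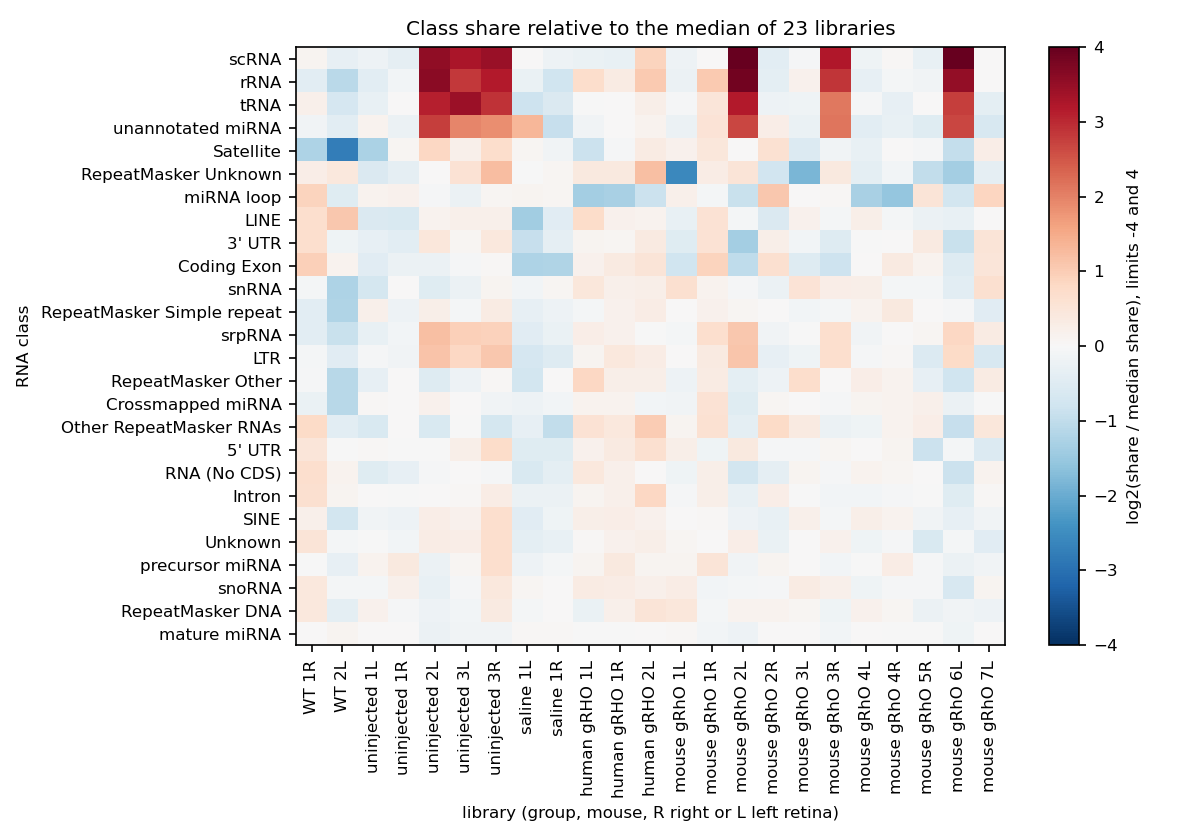
Each cell is log2 of the share of 1 RNA class (rows) in 1 library (columns) over the median share of that class in 23 libraries. Colours end at -4 and 4, and rows are sorted by their largest absolute value. scRNA, rRNA, tRNA and unannotated miRNA are dark red in the same 6 columns, and mature miRNA, at the bottom, varies least.

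Both retinas were sequenced in 8 mice, so the retinas of 1 animal could be set beside each other. In mouse gRhO mouse 2 rRNA took 6.20% in the left and 0.321% in the right retina, a ratio of 19.3. The ratio between these retinas was 10.3 for tRNA and 22.4 for scRNA. In mouse gRhO mouse 3 the right retina was the high one, with 3.08% rRNA against 0.473% on the left. The high level was therefore on opposite sides in these animals. In uninjected mouse 3 both retinas were high. In the 6 mice other than mouse gRhO mice 2 and 3, the higher retina exceeded the lower by 1.19-fold to 2.43-fold for rRNA. The largest of these ratios was in mouse gRhO mouse 1, with 0.878% on the right and 0.362% on the left.

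Some classes were closer between the retinas of a mouse and some were not. The snoRNA share differed by at most 1.38-fold and by 1.08-fold at the median, and the mature miRNA share by at most 1.15-fold. Apart from rRNA, tRNA and scRNA, the classes with the largest ratios reached 7.35 for repeats of unknown type, 5.38 for unannotated miRNA, 3.93 for the hairpin loop, 3.23 for coding exons and 3.01 for 3' untranslated regions. That of repeats of unknown type rests on very few reads. It was 6.35e-05% against 8.64e-06% of aligned reads, in mouse gRhO mouse 1. At the median of the 8 mice, unannotated miRNA differed 1.49-fold, rRNA 1.37-fold, tRNA 1.34-fold and scRNA 1.15-fold, so the large rRNA, tRNA and scRNA ratios belonged to few animals. Right and left retinas were compared by an exact two-sided sign-flip permutation test of the log2 shares over 8 mice, where the smallest possible p is 0.0078. None of 26 classes passed the threshold after Benjamini-Hochberg adjustment, and 2 had an unadjusted p under 0.05. With that smallest p and 26 classes, a single class could not pass even with all 8 mice in the same direction. The lack of calls therefore does not show that the retinas were alike. Precursor miRNA was higher on the right by 0.26 on the log2 scale (SD 0.20, 7 of 8 mice, exact permutation p = 0.0156, adjusted 0.203). Satellite reads were higher on the right by 0.50 (SD 0.45, 7 of 8 mice, exact permutation p = 0.0156, adjusted 0.203). For rRNA the right retina was higher in 5 of 8 mice (exact permutation p = 0.953).

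**Figure D3:**
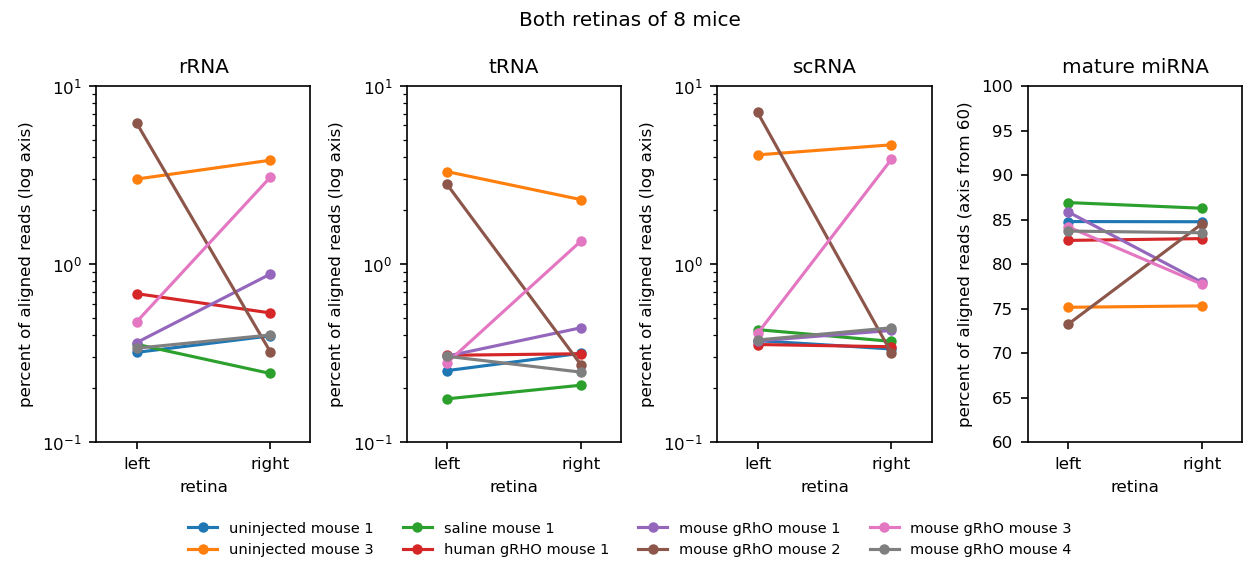
Left and right retina of the 8 mice with both sequenced, joined by a line per mouse. The vertical axes give percent of aligned reads, on a log axis for rRNA, tRNA and scRNA and on a linear axis that starts at 60% for mature miRNA. In mouse gRhO mouse 2 rRNA falls from 6.20% on the left to 0.321% on the right, in mouse gRhO mouse 3 it rises from 0.473% to 3.08%, and uninjected mouse 3 is high in both retinas.

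For comparisons between groups, the reads of a mouse's retinas were summed, and log2 fold changes of the class shares were tested with edgeR's quasi-likelihood test over 15 mice and adjusted by Benjamini-Hochberg over 26 classes, with a threshold of 0.05. A log2 fold change is given with its standard error (SE), and means over mice with their SD. Of the 9 comparisons several share the WT or the uninjected mice, so they are not independent.

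The comparison of P23H with WT retinas asked which classes differed with genotype. Averaged over the 4 P23H groups, 5 of 26 classes differed from WT (19.2% of those tested). Each group had the same weight, so the 1 saline mouse counted as much as the 7 mouse gRhO mice. LINE and coding exon reads were lower in P23H retinas (2 classes, 7.69%), and satellite, simple repeat and crossmapped miRNA reads were higher (3 classes, 11.5%). All but crossmapped miRNA were rare classes. By mouse, 4 of 26 classes (15.4%) had P23H and WT values that did not overlap: LINE, satellite, srpRNA and crossmapped miRNA.

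LINE elements are retrotransposon copies that make up much of the genome. LINE reads took 456 and 598 RPM in the WT mice. They took 188, 314 and 327 in the uninjected, 159 in the saline, 399 and 310 in the human gRHO, and 215 to 331 (median 284) in the mouse gRhO mice. Both WT mice were above all 13 P23H mice, although the left retina of human gRHO mouse 1 alone, at 476, was above WT mouse 1. The log2 fold change of all P23H mice against WT was -1.05 (SE 0.23, edgeR adjusted p = 0.0085).

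Satellite reads, from tandem repeats that are dense at centromeres, were the rarest class that differed. The WT mice had 0.969 and 0.340 RPM, from 11 and 6 reads. Uninjected mice had 1.73, 4.09 and 3.21, the saline mouse 2.25, human gRHO mice 1.74 and 2.88, and mouse gRhO mice 1.19 to 3.14 (median 2.24). Every P23H mouse was above both WT mice, while the left retina of uninjected mouse 1 alone, at 0.968, was level with WT mouse 1. The log2 fold change was 1.95 (SE 0.49, edgeR adjusted p = 0.0143), and it rests on few reads in WT.

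Simple repeats took 54.7 and 32.0 RPM in the WT mice and 53.4 to 91.0 in the 13 P23H mice. The lowest P23H mouse, mouse gRhO mouse 7, was below WT mouse 1. The log2 fold change was 0.78 (SE 0.23, edgeR adjusted p = 0.031). Crossmapped miRNA took 9.51% and 5.32% in WT and 9.59% to 13.8% in P23H mice, with a log2 fold change of 0.61 (SE 0.21, edgeR adjusted p = 0.049). Coding exon reads, from the protein-coding parts of messenger RNA, were at 1589 and 903 RPM in WT and at 357 to 1190 in P23H mice, so WT mouse 2 lay within the P23H range. Their log2 fold change was -0.82 (SE 0.28, edgeR adjusted p = 0.049). With each mouse weighted equally, the log2 difference of coding exons was -0.59 (exact permutation p = 0.152). For LINE, satellite, simple repeats and crossmapped miRNA it was then -0.96, 2.03, 0.84 and 0.70. srpRNA was at 38.0 and 26.9 RPM in WT and at 39.4 to 115 in P23H mice, and did not pass the threshold (log2 fold change 0.85, SE 0.31, edgeR adjusted p = 0.0656).

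**Figure D4:**
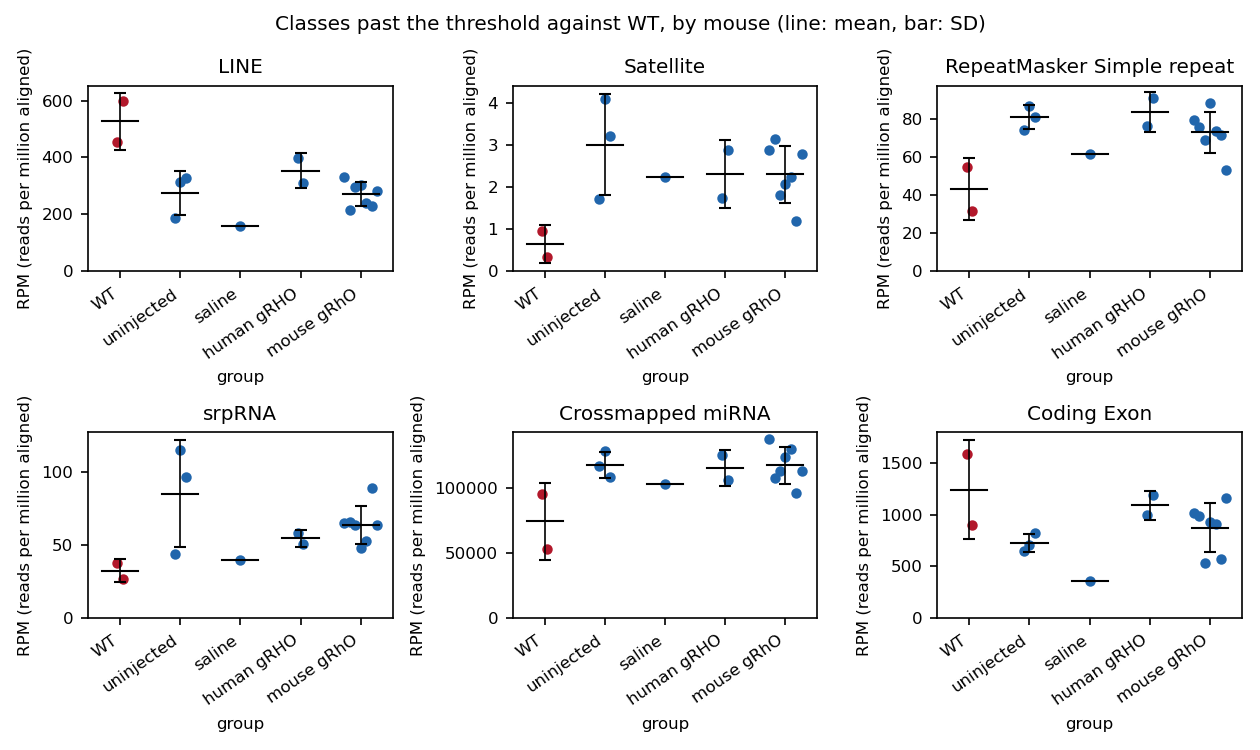
Share of aligned reads, in RPM (vertical axes, from 0), for the 6 classes past the threshold in a comparison with WT, by group (horizontal axes). Each point is 1 mouse, WT in red and P23H mice in blue, the horizontal line is the group mean and the bar is ± 1 SD. The LINE points of WT lie above all others, at 456 and 598, and its satellite points below all others, at 0.969 and 0.340.

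These calls depended on the WT mice. Without WT mouse 2, which had the lowest satellite, simple repeat, srpRNA and crossmapped levels of all 15 mice, 0 of 26 classes passed in any comparison with WT in edgeR, with 4 at an unadjusted p under 0.05 for all P23H mice. The log2 fold changes of all P23H mice against WT mouse 1 alone were -0.84 for LINE (edgeR adjusted p = 0.157), 1.32 for satellite, 0.44 for simple repeats, 0.25 for crossmapped miRNA and -1.17 for coding exons. Without WT mouse 1 they were -1.23, 2.82, 1.22, 1.09 and -0.36, and coding exons no longer passed. With any 1 of the 14 mice outside the saline group left out in turn, LINE and satellite passed each time except without WT mouse 2, while leaving out either human gRHO mouse or mouse gRhO mouse 1, 2 or 5 left these 2 alone. Each WT mouse gave 1 library, so a difference between WT animals and one between WT libraries cannot be told apart. The set of 6 libraries rich in rRNA bore less on these calls: without them 6 of 26 classes passed, of which 4 were among the 5 (LINE, satellite, simple repeats and coding exons). Crossmapped miRNA then had a log2 fold change of 0.62 and an edgeR adjusted p of 0.0797.

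By family, 5 of 7 structural RNA classes had a higher estimate in all P23H mice than in WT, with a median log2 fold change of 0.85 and none past the threshold. All 5 transcript parts had a lower estimate (median -0.35), and only coding exons passed. Of 8 repeat classes 5 had a higher and 3 a lower estimate (median 0.30), with 2 called higher and 1 lower. Over all 26 classes 13 had a higher and 13 a lower estimate, and the median was 0.10.

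Uninjected P23H mice against WT gave 4 classes past the threshold (15.4% of 26), 3 of them higher (11.5%) and 1 lower (3.85%). Satellite (log2 fold change 2.23, SE 0.53), srpRNA (1.39, SE 0.36) and simple repeats (0.90, SE 0.26) were higher, and LINE was lower (-0.93, SE 0.28). Their edgeR adjusted p-values were 0.0165, 0.0165, 0.0253 and 0.0275. srpRNA took 44.0, 115 and 96.6 RPM in the uninjected mice, and the higher values were those of mice 2 and 3, whose libraries were all in the set rich in rRNA. Without the 6 libraries of that set only mouse 1 was left in the group, and 0 of 26 classes passed in edgeR, with 4 at an unadjusted p under 0.05. LINE then had a log2 fold change of -1.49.

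In the same comparison rRNA, tRNA and scRNA had the largest estimates and did not pass in edgeR over 15 mice. DESeq2 called all 3, and edgeR fitted to only these groups called rRNA and scRNA but, of the 4 classes above, satellite alone. rRNA took 0.315% and 0.201% in WT mice and 0.358%, 5.14% and 3.41% in uninjected mice, with means of 0.258% ± 0.080 (SD, n = 2) and 2.97% ± 2.42 (SD, n = 3). Uninjected mouse 1 lay close to WT and mice 2 and 3 far above. The log2 fold change was 3.53 with an SE of 1.45 (edgeR adjusted p = 0.0793). For tRNA it was 2.80 (SE 1.08, edgeR adjusted p = 0.0738) and for scRNA 3.02 (SE 1.48, edgeR adjusted p = 0.137). Mature miRNA took 88.0% ± 4.22 (SD, n = 2) in WT and 77.1% ± 6.89 (SD, n = 3) in uninjected mice (log2 fold change -0.19, SE 0.07, edgeR adjusted p = 0.0666). Without uninjected mouse 1, 7 classes passed, among them rRNA, tRNA and mature miRNA. Without mouse gRhO mouse 6, which enters the shared estimate of spread, 8 passed. Without the 6 libraries the scRNA estimate turned to -0.18.

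Mouse gRhO against WT gave 5 classes past the threshold (19.2% of 26), 4 of them higher (15.4%) and 1 lower (3.85%). LINE was lower (-0.96, SE 0.23), and satellite (1.88, SE 0.49), simple repeats (0.75, SE 0.23), crossmapped miRNA (0.66, SE 0.21) and srpRNA (0.98, SE 0.32) were higher on the log2 scale. The edgeR adjusted p was 0.0207 for LINE and satellite and 0.0384 for the other 3. srpRNA took 47.9 to 89.0 RPM (median 63.5) in the mouse gRhO mice, all above both WT mice. Mature and crossmapped miRNA, rRNA, RNA without a coding sequence, LINE, satellite and repeats of unknown type did not overlap between these groups either. Without the 6 libraries rich in rRNA 8 classes passed, including these 5. Without WT mouse 2 none passed, and leaving out uninjected mouse 3, either human gRHO mouse, or mouse gRhO mouse 1, 2, 3 or 5 left 2 classes, LINE and satellite.

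Human gRHO against WT gave 0 of 26 classes past the threshold in edgeR (0%), with 6 at an unadjusted p under 0.05, and DESeq2 called 2. The smallest adjusted p was that of simple repeats (log2 fold change 0.95, SE 0.28) and satellite (1.85, SE 0.56), at 0.061 for both in edgeR. rRNA took 0.606% and 0.875% in the human gRHO mice, above both WT mice (log2 fold change 1.52). LINE took 399 and 310 RPM, below both WT mice (log2 fold change -0.57). Such a gap was common among the 26 classes. It was also present for every miRNA class with reads and for snRNA, srpRNA, LTR, satellite, simple repeats and repeats labelled other. With 2 against 2 mice it has an exact permutation p of 0.333.

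The treatments were compared with uninjected P23H mice to ask whether the rhodopsin genes changed the makeup of the small RNA. Mouse gRhO against uninjected gave 0 of 26 classes past the threshold in edgeR (0%), with 2 at an unadjusted p under 0.05, and DESeq2 also called 0. rRNA took 0.365% to 4.85% (median 0.631%) in the 7 mouse gRhO mice, tRNA 0.237% to 2.12% (median 0.374%), scRNA 0.345% to 7.07% (median 0.428%) and mature miRNA 74.3% to 84.7% (median 81.7%). The mice of both groups overlapped in every one of the 26 classes (0 did not, 0%). The log2 fold change was -0.98 (SE 0.90, edgeR adjusted p = 0.589) for rRNA, -1.38 (SE 0.69, edgeR adjusted p = 0.492) for tRNA and 0.08 (SE 0.05, edgeR adjusted p = 0.501) for mature miRNA. Without the 6 libraries, when uninjected mouse 1 stood alone for its group, these estimates were 0.27, 0.04 and -0.02. Without uninjected mouse 1 instead, 3 classes passed, LTR, srpRNA and a repeat class of unknown type.

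Human gRHO against uninjected gave 0 of 26 classes past the threshold in edgeR (0%), with 2 at an unadjusted p under 0.05, and DESeq2 called 0. The estimates were -2.0 (SE 1.34) for rRNA, -2.51 (SE 1.07) for tRNA and -2.50 (SE 1.44) for scRNA on the log2 scale, and without the 6 libraries they turned to 1.05, 0.26 and 0.70. The smallest adjusted p, 0.209 in edgeR, was that of other structural RNA repeats (log2 fold change 1.16, SE 0.38). The saline group was 1 mouse, so its values are a description. An edgeR fit that assumes it to vary like the other groups called 0 of 26 classes (0%) against uninjected mice, which says nothing of a difference or its absence. The saline mouse had 0.296% rRNA, 0.193% tRNA, 0.397% scRNA and 86.6% mature miRNA. Its LINE level of 159 RPM and its coding exon level of 357 were the lowest of the 15 mice.

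Human gRHO and mouse gRhO mice were compared directly to ask whether the species of the gene mattered. In edgeR 0 of 26 classes passed (0%), with 4 at an unadjusted p under 0.05, and DESeq2 called 0. The smallest adjusted p, 0.0776 in edgeR, was that of repeats of unknown type (log2 fold change 1.27, SE 0.36), which held 0.199 to 1.19 RPM in the P23H mice. Introns took 0.220% and 0.347% in the human gRHO mice and 0.141% to 0.214% in the mouse gRhO mice (log2 fold change 0.56, SE 0.22, edgeR adjusted p = 0.208). Of the 26 classes, introns, 5' untranslated regions, other structural RNA repeats, repeats of unknown type and reads of unknown class did not overlap between these groups. With 2 against 7 mice such a gap has an exact permutation p of 0.0556. Mature miRNA was at 83.4% ± 0.857 (SD, n = 2) in human gRHO and 81.4% ± 3.42 (SD, n = 7) in mouse gRhO mice. In the same order rRNA was at 0.741% ± 0.190 (SD, n = 2) and 1.51% ± 1.65 (SD, n = 7). Tested over all 5 groups at once, 0 of 26 classes passed in edgeR (0%), with 8 at an unadjusted p under 0.05 and a smallest adjusted p of 0.0616 for LINE.

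Neither snoRNA nor snRNA passed the threshold in a comparison of groups with aligned reads as library size and all 15 mice. Under other settings snRNA passed as higher than in WT: with TMM factors and without WT mouse 1 for mouse gRhO and for all P23H mice, without the 6 libraries rich in rRNA for mouse gRhO, and without WT mouse 1 for human gRHO. snoRNA log2 fold changes lay between -0.22 and 0.29 over the 8 pairs of groups compared, counting all P23H mice as a group, and those of snRNA between 0.11 and 0.82. snRNA was lowest in WT mouse 2, at 0.0110% of aligned reads, and WT mouse 1 was at 0.0243%, within the range of 0.0183% to 0.0402% of the P23H mice.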

How the data were processed

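Small RNA of 23 retinas was sequenced; per the labels' protocols, Trizol was used for extraction and a NEXTflex kit for the libraries. The authors deposited raw read counts, as whole numbers, for each class and library. DESeq2 is named in the submitters' processing notes without a version. For the aligner, the class annotation, the filters and the build, the entry is: not given in the sources used here. A read placed in a class by another rule of precedence would change its share.

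Class counts of the retinas of a mouse were summed and tested with edgeR 4.0.16 (robust quasi-likelihood, R 4.3.3), with aligned reads as library size, no TMM factors and all 15 mice of 5 groups in 1 fit. Aligned reads per mouse ran from 9780335 to 29549017. Classes needed 10 reads in 3 mice, which all 26 with reads met. Permutation tests used scipy 1.17.1. The script was tested on simulated data. Standard errors are the log2 fold change over the square root of F. Planned comparisons of insert length were not run, since the 4 adapter columns hold 0. No count column was left out when columns were assigned (0 columns). Those for adapter dimers, softclipped reads and reads that failed the chastity filter were assigned but not analysed. Alternatives were DESeq2 1.42.0, an exact permutation test, TMM, other denominators, no filter, single libraries, only the groups compared, each mouse left out and, chosen after seeing the data, leaving out the 6 libraries highest in rRNA. Named classes are those with a mean of at least 0.5% of aligned reads, rRNA, tRNA, snoRNA, snRNA, scRNA, coding exons and every class past the threshold; others are given by range, or were picked with their values known. The classes and their families were chosen with earlier results of these data known.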

Additional observations from a re-analysis of the deposited data

Results flagged for a closer look

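In the mouse gRhO group, mouse 6 stood far from the other 6 mice in 3 of the 14 classes examined for such gaps. Its mature miRNA share was 74.3% and the nearest mouse was at 80.8%. Its rRNA share was 4.85% against 2.25% in the nearest mouse, and its scRNA share 7.07% against 2.54%. In each case the gap, divided by the range of the group, was above Dixon's critical value at the 95% level for 7 mice. That value assumes normally distributed data, and the gaps were taken on percentages. Such shares are skewed, with a mean of 1.51% and a median of 0.631% for rRNA in this group. On the log2 scale of the other tests high shares lie closer together, and gaps on that scale were not examined. Chance flags about 1 in 20 groups, and the classes share a denominator, so the 3 are not independent. By library the left retina of mouse gRhO mouse 2 was further out, with 73.2% mature miRNA, 6.20% rRNA and 7.11% scRNA, but it was summed with its low right retina. Only the left retina of mouse 6 was sequenced, and it is 1 of the 6 libraries rich in rRNA.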

How the results depend on the processing

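Of 672 recomputed log2 fold changes, 662 kept their direction, 93 lost and 12 gained the threshold. Many of the 672 could hardly turn, because the filter removed no class and many mice left out were outside the groups compared. The 662 are therefore no measure of how stable the directions are. The 10 that turned did so without the 6 libraries highest in rRNA: uninjected against WT scRNA -0.18; mouse gRhO against uninjected rRNA 0.27, tRNA 0.038, scRNA 0.12 and mature miRNA -0.019; human gRHO against uninjected 1.05, 0.26, 0.70 and -0.024 in that order; saline against uninjected scRNA 0.17. Fewer mice remain in those fits. Counts of classes past the threshold changed as follows, and the cause was not tested. For uninjected against WT the count of 4 became 0 without the 6 libraries and 8 in DESeq2; with only the groups compared it stayed 4, but 1 class was shared, satellite, and LINE, simple repeats and srpRNA gave way to rRNA, scRNA and unannotated miRNA. For mouse gRhO against WT the count of 5 became 3 with total reads as denominator, 1 with mature miRNA reads, 3 with only the groups compared and 8 without the 6 libraries. For all P23H mice against WT the count of 5 became 3 with mature miRNA reads and 0 in the exact permutation test, where LINE, satellite, srpRNA and crossmapped miRNA reached the smallest possible p of 0.019 (adjusted 0.124). With that smallest p and 26 classes, a class could pass only if many others tied with it. The drop in that test was therefore largely fixed in advance and does not show that the calls were unstable. The count of 0 became, for human gRHO against WT, 2 with TMM, 1 with single libraries, 3 without the 6 libraries and 2 in DESeq2; for human gRHO against uninjected, 2 with only the groups compared; for human against mouse gRhO, 1 with TMM, 1 with total reads, 2 without the 6 libraries and 1 with only the groups compared; and over 5 groups, 1 with total reads, 1 with single libraries and 4 without the 6 libraries. Leaving out each mouse gave 0 to 8 for uninjected against WT, 0 to 5 for mouse gRhO and for all P23H mice against WT, 0 to 6 for human gRHO against WT, 0 to 3 for mouse gRhO and for saline against uninjected, 0 to 1 for human gRHO against uninjected and against mouse gRhO, and 0 to 7 over 5 groups. Where that left 1 mouse in a group, it was assumed to vary like the others.

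The split of higher and lower calls moved with the scaling. For uninjected against WT it was 3 to 1, and 4 to 0 with mature miRNA reads. For mouse gRhO against WT it was 4 to 1, 2 to 1 with total reads and 1 to 0 with mature miRNA reads. For all P23H mice against WT it was 3 to 2, and 4 to 1 with TMM, 2 to 2 with total reads, 3 to 1 with aligned reads without rRNA and 2 to 1 with mature miRNA reads. Against the main scaling, the median log2 fold change over all classes moved by 0.31 for uninjected against WT with mature miRNA reads and by 0.37 for saline against uninjected with TMM.

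Right and left retinas were paired by mouse, and without that replicate block 0 classes passed as well. Between groups no paired analysis was possible because replicate numbers only follow the order of the records. Exact permutation tests of other pairs of groups with 2 mice could not reach the threshold (smallest p 0.0556, 0.2 or 0.333) and were not counted. Alternatives for insert length were not run, since those columns hold 0. DESeq2 was run for the 7 comparisons of 2 groups, and not for all P23H mice or over 5 groups. Depth limits the rarest classes: repeats of unknown type, down to 0.199 RPM in a mouse, and satellite, with 11 and 6 reads in the WT mice.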

Other observations

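Among the 10 mice with the lower rRNA shares (at most 0.875%), relations of the log2 rRNA share to the other 25 classes were computed with 100000 permutations. After Benjamini-Hochberg adjustment 0 passed, and 11 had an unadjusted permutation p of Pearson's r under 0.05. The smallest adjusted p, 0.0603 in that permutation test, was shared by mature miRNA, tRNA, snRNA, srpRNA, satellite, simple repeats and others. These mice came from every group, WT included, and were permuted without regard to group. Differences between groups and covariation between mice of a group cannot be told apart in these values. The mature miRNA share had Pearson's r of -0.77 (permutation p = 0.00827, adjusted 0.0603) and Spearman's rho of -0.82 (permutation p = 0.00571, adjusted 0.0714), and r was -0.86 without the 2 mice farthest from the median rRNA share. For srpRNA r was 0.77 and rho 0.85, and for tRNA r was 0.72, falling to 0.49 without those 2 mice. For scRNA r was 0.60 and turned to -0.31 without them, so it rested on those mice. All these shares have the same denominator. The 5 mice above, from 1.67% rRNA, were too few for a value of their own.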
